A study of Mus musculus with 8 samples.

Results

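The genes described here are 10 genes expressed by the endothelial cells of brain vessels and used to recognise them: Cldn5, Pecam1, Cdh5, Tek, Flt1, Kdr, Slco1a4, Abcb1a, Slc2a1 and Mfsd2a. They were followed through every non-control probe that carries one of these names on the arrays, which gave 18 of 41174 probes and 10 of the 27373 distinct entries in the gene name column. Of the 18 probes, 14 were bright enough to be tested, and each of the 10 genes had at least 1 of them. Hippocampal RNA of 4 BTBR and 4 B6 mice was measured on single-color Agilent arrays, 1 mouse per array, to ask how the transcriptome of BTBR, an inbred mouse strain studied as a model of autism, differs from that of B6. The BTBR mice carried the genotype BTBR T+ Itpr3tf/J, and the B6 mice were wild type C57BL/6J. The labels also give C57BL/6J as strain background for the BTBR samples, although title, source and genotype name BTBR. All 8 mice were male, 5 months old and without drug treatment, and the whole hippocampus was taken. BTBR and B6 are separate inbred strains and differ at many loci, so that no difference below can be assigned to the Itpr3 allele or to any other single variant.

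Endothelial cells line the blood vessels, and in brain they are joined by tight junctions and let few substances pass between or through them. This blood-brain barrier rests on claudins and cadherins that seal and hold the cells together, on transporters that bring nutrients in, on efflux pumps that send foreign molecules back to the blood, and on a low rate of vesicle transport. Growth factors of the VEGF and angiopoietin families act on endothelial receptor kinases to control vessel growth, stability and permeability.

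Levels are normalized log2 intensities, and every difference is BTBR minus B6 on that scale, where 1 unit is a doubling. A probe was called when the Benjamini-Hochberg adjusted p of limma, taken over all 27982 probes tested, was under 0.05. Of the 14 member probes, 1 was called, against 7.61% of all probes tested (3.31% higher and 4.3% lower in BTBR). This was the probe of Mfsd2a, which was higher in BTBR. The rank product, the test that the study's methods name, called 0 of the 14 at a percentage of false prediction (pfp) of 0.05 or less, against 3.92% of all probes, and 3 of the 14 had an unadjusted limma p under 0.05, against 18.5%. Values of the strains did not overlap at 1 of the 14 member probes, against 14.2% of all probes, 6.91% with BTBR wholly higher. In direction, 11 of the 14 probes were higher and 3 lower in BTBR, with a median difference of 0.10, beside 53.2% of all probes higher and a median of 0.01. With the processed signal of the scanner software scaled to the 75th percentile, 13 were higher and 1 lower with a median of 0.16, and with median centring the median was 0.07. In whole tissue, fewer cells of a type and less RNA per cell cannot be told apart. Each limma p-value sets a strain difference against the spread between mice of the same strain.

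**Figure D1:**
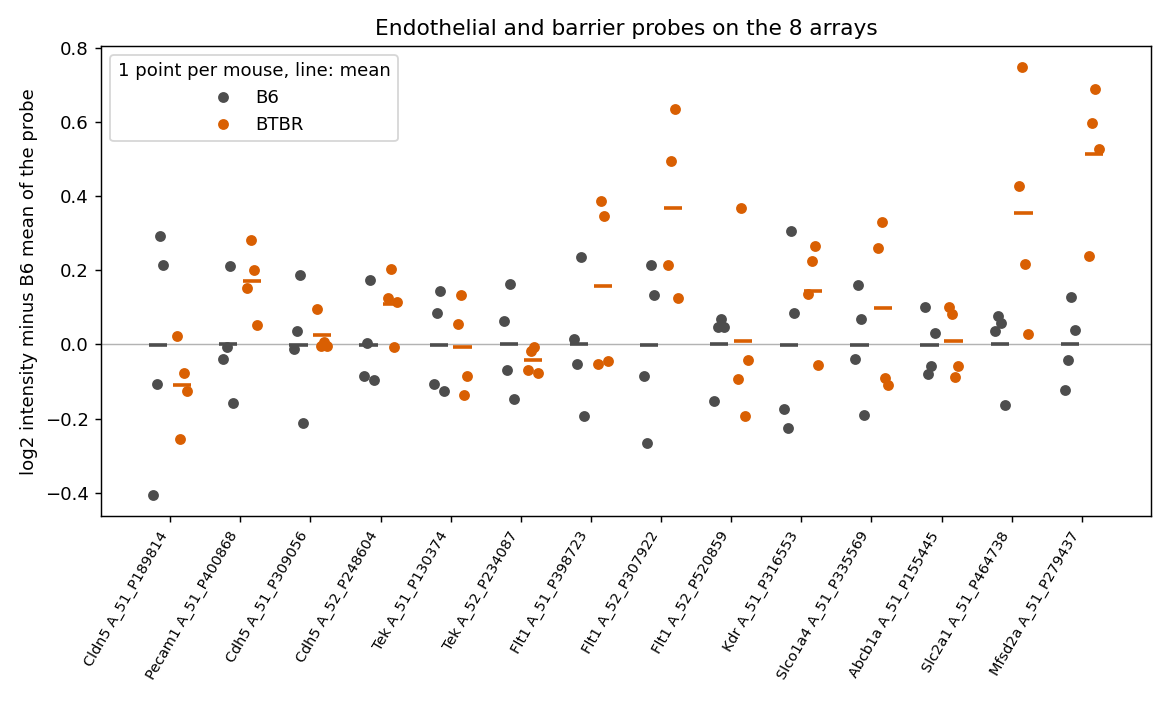
Normalized log2 intensity of the 14 tested probes, shown for each probe relative to its B6 mean, with 1 point per mouse (gray, B6; orange, BTBR; n = 4 each) and a line at each strain mean. The strains are fully apart only at Mfsd2a, where the BTBR mean lies 0.51 above the B6 mean; the single overlapping BTBR mouse at Slc2a1 is replicate 4.

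The probes of Mfsd2a, the called gene, and of Slc2a1 and Flt1, which were not called but had a probe with an unadjusted limma p under 0.05, are shown first. They are 60 bases long, and the first 30 bases of each are given as the array files hold them, 5′ to 3′, because the reading of each gene rests on what its probe matches.
Mfsd2a A_51_P279437: ctgactgggcctagctcggaacactaatgt
Slc2a1 A_51_P464738: acccacttgtaaatacaccaacaaactcct
Flt1 A_52_P307922: caccaagctttgatggcattcaaagatgtc
Flt1 A_51_P398723: aagtaaagaaaagctatcgggattctctgg
Flt1 A_52_P520859: cctgtattattccgattttaataatctaat
On mm9 the Mfsd2a probe lies at chr4:122624182-122624241 on the minus strand, and the Slc2a1 probe at chr4:118809864-118809923 on the plus strand. The Flt1 probes lie on the minus strand of chromosome 5, at chr5:148449781-148449840, chr5:148373791-148373850 and chr5:148373864-148373923 in the order shown. The files assign the Mfsd2a probe to transcript NM_029662 and the Slc2a1 probe to NM_011400. The first Flt1 probe is assigned to ENSMUST00000110529 and the other two to NM_010228, and 13 bases separate the latter on the genome. Exon and UTR positions of these probes were not determined here, and whether strain variants lie under them was not tested.

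Mfsd2a encodes a lipid transporter of brain endothelium that carries docosahexaenoic acid as lysophosphatidylcholine into the brain and holds vesicle transport low. Its intensity in B6 replicates 1 to 4 was 12.82, 12.90, 13.07 and 12.98, and in BTBR replicates 1 to 4 it was 13.18, 13.54, 13.63 and 13.47. All 4 BTBR mice were above all 4 B6 mice. The means were 12.94 ± 0.11 in B6 and 13.45 ± 0.19 in BTBR (SD, n = 4 each). BTBR was higher by 0.51 (SE 0.10, 95% interval 0.28 to 0.75), which is 1.43-fold (interval 1.21 to 1.68), with an adjusted limma p of 0.0167. The exact two-sided permutation test gave p = 0.0286, the smallest that 4 arrays against 4 allow.

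The 8 arrays sat on 2 slides, with replicates 1 and 2 of both strains on slide 1 and replicates 3 and 4 on slide 2. Slide 1 gave a Mfsd2a difference of 0.50 and slide 2 gave 0.53. Its rank product pfp was 0.0897. Over 22 alternative settings with a limma fit, the difference stayed between 0.45 and 0.61, and 18 of them called it. It was not called without B6 replicate 1 (difference 0.47, limma adjusted p = 0.0555), without B6 replicate 2 (0.50, limma adjusted p = 0.0570) or within either slide alone, where adjusted limma p was 0.0641 and 0.0995.

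**Figure D2:**
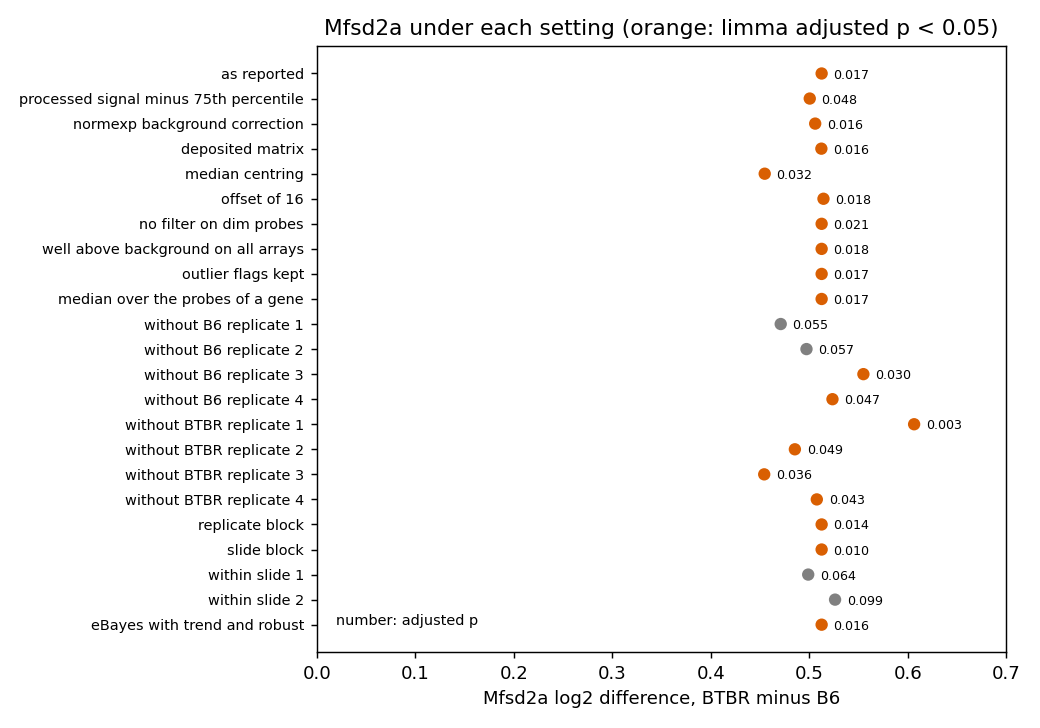
Mfsd2a log2 difference, BTBR minus B6, as reported and under each alternative setting with a limma fit; the number beside a point is the adjusted p, and orange marks those under 0.05. All points lie between 0.45 and 0.61, while the adjusted p falls on both sides of 0.05.

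Slc2a1 encodes the glucose transporter Glut1, which supplies the brain with glucose across the endothelium and is also made by astrocytes. In B6 its probe read 14.22, 14.26, 14.24 and 14.02, and in BTBR 14.61, 14.93, 14.40 and 14.21. BTBR replicates 1 to 3 were above every B6 mouse, and BTBR replicate 4 lay within the B6 range. The difference was 0.35 (SE 0.14, interval 0.03 to 0.68), 1.28-fold, with an unadjusted limma p of 0.0361 and an adjusted limma p of 0.224, so that it was not called. On slide 1 it was 0.53 and on slide 2 it was 0.18. Without BTBR replicate 4 the strains no longer overlapped and the difference was 0.46, with an adjusted limma p of 0.0782, and without BTBR replicate 2 it was 0.22, with an adjusted limma p of 0.362.

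The transporters Abcb1a and Slco1a4 gave no call. Abcb1a encodes P-glycoprotein, an efflux pump for drugs and lipophilic compounds, and its probe A_51_P155445 ranged from 8.15 to 8.33 in B6 and from 8.14 to 8.33 in BTBR. The strains covered the same range there, and the difference of 0.01 had an interval of -0.16 to 0.18 (limma adjusted p = 0.966). Slco1a4 encodes an organic anion carrier of brain endothelium, and its probe A_51_P335569 read 11.96, 12.16, 12.07 and 11.81 in B6 and 12.26, 12.33, 11.91 and 11.89 in BTBR. Both BTBR mice of slide 1 were above all B6 mice, and both of slide 2 were within the B6 range. The mean difference was 0.10 (SE 0.12, interval -0.18 to 0.38, limma adjusted p = 0.754, and 0.02 without BTBR replicate 2 and 0.16 without BTBR replicate 4), with 0.23 on slide 1 and -0.04 on slide 2.

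Cldn5 encodes claudin 5, the main tight junction strand protein of brain endothelium. Its probe A_51_P189814 (chr16:18778046-18778105, plus strand) read 13.36, 13.66, 14.06 and 13.98 in B6, and 13.79, 13.51, 13.69 and 13.64 in BTBR. All 4 BTBR values fell inside the B6 range, which was the wider of the pair, with an SD of 0.32 in B6 and 0.12 in BTBR. BTBR was lower by a difference of -0.11 (SE 0.15, interval -0.45 to 0.23, limma adjusted p = 0.772). Without B6 replicate 1 it was -0.24 and without B6 replicate 3 it was -0.01. Slide 1 gave 0.14 and slide 2 gave -0.36. The change of the difference between slides had an unadjusted limma p of 0.0337 and an adjusted limma p of 0.489.

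Cdh5 encodes VE-cadherin, the adhesion protein of endothelial adherens junctions, and was read by 2 probes on chromosome 8. Probe A_52_P248604 had means of 9.32 ± 0.13 in B6 and 9.42 ± 0.09 in BTBR (SD, n = 4 each), a difference of 0.11 (SE 0.08, limma adjusted p = 0.553). It was 0.17 without B6 replicate 3 and 0.23 with the processed signal. Probe A_51_P309056 was dim, and passed the background limit on 3 of the 4 B6 arrays and all 4 BTBR arrays. Its B6 values were 8.27, 8.32, 8.47 and 8.07 and its BTBR values 8.38, 8.28, 8.29 and 8.28. All BTBR values lay within the B6 range, and the difference was 0.02 (SE 0.09, limma adjusted p = 0.923).

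Pecam1 encodes the adhesion protein CD31, found where endothelial cells touch each other and also on blood platelets and leukocytes. Its probe A_51_P400868 is printed in 10 spots on each array, and each value below is the median of those spots. B6 read 8.75, 8.78, 9.00 and 8.63, and BTBR read 8.94, 9.07, 8.99 and 8.84. The strains overlapped through B6 replicate 3, and without that array they did not. The difference was 0.17 (SE 0.09, interval -0.03 to 0.38, limma adjusted p = 0.371). It depended on the signal used, with 0.41 (limma adjusted p = 0.254) from the processed signal and 0.11 (limma adjusted p = 0.359) from the deposited matrix. The SD among the 10 spots of an array had a median of 0.149 over the 8 arrays. The other Pecam1 probe, A_52_P349070, was not well above background on the 8 arrays and gives no fold.

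Of the VEGF receptors, Flt1 encodes VEGFR1, which binds VEGF tightly and exists in a soluble form without the kinase, and Kdr encodes VEGFR2, the main signaling receptor of endothelium. Flt1 probe A_52_P307922 read 11.97, 11.79, 12.27 and 12.19 in B6 and 12.27, 12.55, 12.69 and 12.18 in BTBR. BTBR replicates 2 and 3 were above every B6 mouse and the other two were not clearly so. The difference was 0.37 (SE 0.14, interval 0.05 to 0.69), 1.29-fold, with an unadjusted limma p of 0.0298 and an adjusted limma p of 0.200. It was larger on slide 1, at 0.53, than on slide 2, at 0.20, and this change had an unadjusted limma p of 0.236.

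The other Flt1 probes gave smaller differences. At A_51_P398723, B6 read 13.49, 13.42, 13.71 and 13.28 and BTBR 13.42, 13.86, 13.82 and 13.43, a difference of 0.16 (SE 0.13, limma adjusted p = 0.612). It was 0.08 without BTBR replicate 2, 0.09 without B6 replicate 4 and 0.09 without BTBR replicate 3. At the nearby A_52_P520859, B6 read 8.90, 9.10, 9.12 and 9.10 and BTBR 8.96, 9.42, 8.86 and 9.01, a difference of 0.01 (SE 0.12, limma adjusted p = 0.978). The intervals of the 3 differences overlap, and no test was made of one probe against another. The remaining probes, A_52_P405145 and A_52_P650151, were not well above background on the 8 arrays.

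Kdr probe A_51_P316553 (chr5:76329309-76329368, minus strand) is also printed in 10 spots. It read 10.05, 10, 10.53 and 10.31 in B6 and 10.36, 10.45, 10.49 and 10.17 in BTBR. The BTBR values all lay within the B6 range, with a difference of 0.14 (SE 0.13, interval -0.15 to 0.43, limma adjusted p = 0.644). Leaving out B6 replicate 1 or 2 gave 0.08 and 0.07, and leaving out B6 replicate 3 gave 0.24. The slides gave 0.38 and -0.10, and their contrast had an unadjusted limma p of 0.0365 and an adjusted limma p of 0.490. The second Kdr probe, A_52_P478193, was likewise not well above background.

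Tek encodes Tie2, the angiopoietin receptor that stabilises quiescent vessels. At probe A_51_P130374, B6 ranged from 9.24 to 9.51 and BTBR from 9.23 to 9.50, a difference of -0.01 (SE 0.09, interval -0.21 to 0.20, limma adjusted p = 0.979). At A_52_P234087, B6 ranged from 8.80 to 9.11 and BTBR from 8.87 to 8.94, a difference of -0.04 (SE 0.08, interval -0.22 to 0.13, limma adjusted p = 0.834). At both probes the strains overlapped.

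**Figure D3:**
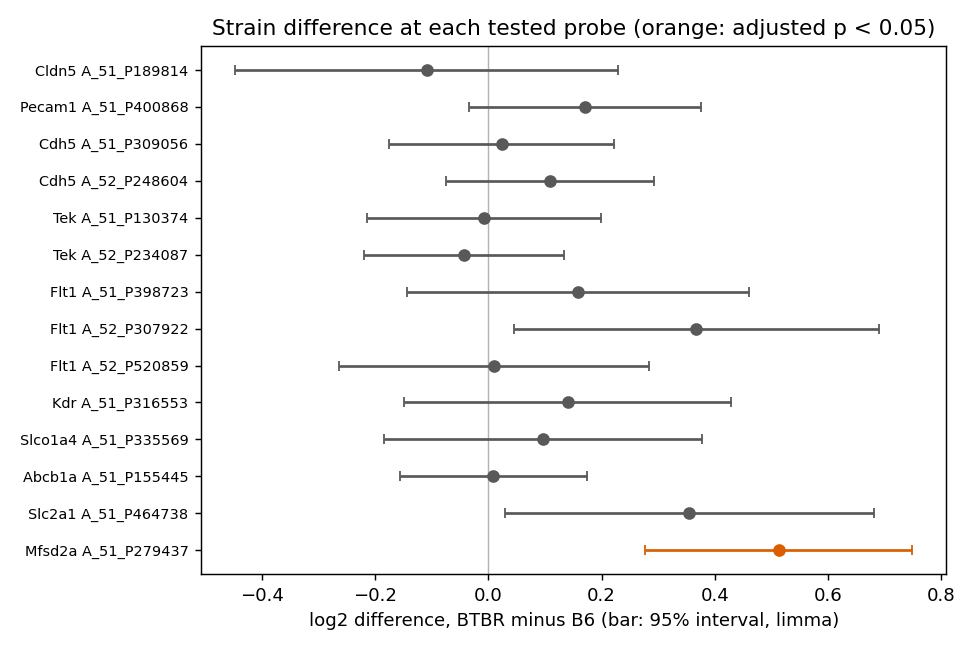
Log2 difference, BTBR minus B6, at the 14 tested probes with its 95% interval from limma (8 arrays). Orange marks the Mfsd2a probe, the only one with an adjusted p under 0.05; the intervals of Slc2a1 and of Flt1 probe A_52_P307922 also lie above 0.

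The mice of a strain differed in the overall level of these genes. B6 replicate 3 had the highest B6 value at 11 of the 14 probes, with a median deviation of 0.17 from the B6 mean, and was the highest B6 array at 19.2% of all probes tested. B6 replicate 4 was the lowest B6 array at 8 of the 14 probes (median deviation -0.11). Within BTBR, replicate 2 was highest at 7 of 14 (median deviation 0.10, beside 25.4% of all probes) and replicate 4 lowest at 7 of 14 (-0.07). The same arrays led a wider list of endothelial identity genes that holds none of the 10 members: B6 replicate 3 was highest at 19 of 29 genes and BTBR replicate 2 at 24 of 29. Markers of other tissue also stood apart in some of these arrays. B6 replicate 3 was the highest B6 array at 8 of 8 meningeal and 5 of 7 choroid plexus markers, and B6 replicate 4 the lowest at 7 of 8 and 6 of 7. BTBR replicate 2 was the highest BTBR array at 8 of 8 microglial markers and the lowest at 6 of 8 meningeal markers. BTBR replicate 4 was the highest at 7 of 8 meningeal markers, and the part of such tissue in the endothelial levels of these arrays was not tested. Without B6 replicate 3 the median difference over the 14 probes was 0.14, and without BTBR replicate 2 it was 0.06, with 9 probes higher and 5 lower. By slide, the median was 0.20 with 13 of 14 higher on slide 1, and -0.02 with 7 of 14 higher on slide 2.

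**Figure D4:**
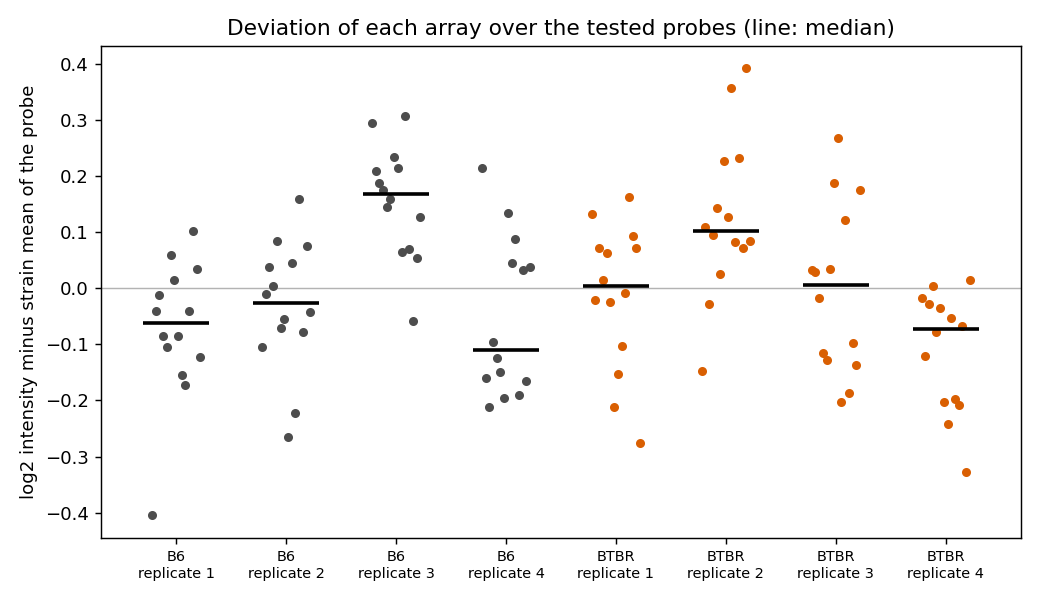
Deviation of each array from its strain mean over the 14 tested probes, in log2 units, with 1 point per probe and a line at the median. B6 replicate 3 (median 0.17) and BTBR replicate 2 (median 0.10) stand highest in their strains, and both replicates 4 stand lowest.

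To set Mfsd2a against the level of endothelial transcripts in each mouse, the mean of the 10 tested probes of Cldn5, Pecam1, Cdh5, Tek, Flt1 and Kdr was subtracted from it array by array. This mean was 10.33 ± 0.14 in B6 and 10.41 ± 0.08 in BTBR (SD, n = 4 each). Mfsd2a minus this mean was 2.59, 2.63, 2.54 and 2.70 in B6, and 2.79, 3.03, 3.20 and 3.16 in BTBR. All BTBR mice were above all B6 mice on this scale as well. This is a description only, since Mfsd2a was taken up for its difference and the subtracted mean differed little between the strains. For Slc2a1 the same subtraction gave 3.99, 3.99, 3.71 and 3.73 in B6 and 4.22, 4.42, 3.97 and 3.90 in BTBR, which overlapped.

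Other genes of the vessel wall were taken from 7 lists with 151 genes, each gene read at its brightest probe. Of the 142 genes tested, 13 were called, 9 higher and 4 lower in BTBR, which is 9.15% beside 7.82% of the brightest probes of all genes (3.49% higher and 4.33% lower). The median difference over the 142 genes was 0.02. Leaving out 1 array at a time gave between 6 calls (without B6 replicate 2) and 14, and without B6 replicate 3 there were 7 and without BTBR replicate 2 there were 8. Calls over all probes moved too, from 2129 to 1498 without B6 replicate 2, 1490 without B6 replicate 3, 1777 without BTBR replicate 2 and 2190 without BTBR replicate 3, which gave the 14.

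The endothelial identity list had 2 genes that rose and 3 that fell among 29 tested, or 17.2% beside 7.82% of all genes. Its median was -0.01. Fli1, an ETS transcription factor of endothelium and blood cells, fell from 10.02 to 8.47, a difference of -1.55 (SE 0.11, limma adjusted p = 2.74e-05), while its second probe gave -0.22 (limma adjusted p = 0.128). Adgrf5, an adhesion receptor named Gpr116 on the array, fell from 10.13 to 8.46 (difference -1.67, SE 0.15, limma adjusted p = 0.000146), with 3 of 4 BTBR arrays well above background. Ets1, another ETS factor, was higher by 0.60 at its brightest tested probe (limma adjusted p = 0.00129), and its 2 other tested probes gave -0.07 and -0.04. The probes of Fli1 and of Ets1 thus differed in what they showed, and whether strain variants under a probe contribute was not tested.

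Vwf and Ramp2 complete the calls of that list and were named after their values were seen. Vwf encodes von Willebrand factor, the clotting protein stored by endothelium. Its probe A_51_P103397 read 12.99, 12.93, 13.42 and 12.77 in B6 and 13.74, 14.22, 14.21 and 13.81 in BTBR, with no overlap. The difference was 0.97 (SE 0.16, limma adjusted p = 0.0062), and the second tested probe gave 0.88 (limma adjusted p = 0.0037). Ramp2, a partner of the adrenomedullin receptor, fell by 0.54 (SE 0.14, limma adjusted p = 0.0495).

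Among transporters and receptors of the barrier, 2 of 26 rose and none fell at the threshold at the brightest probe. This is 7.69% beside 7.82% of all genes, and the median was 0.02. Slco1c1, the thyroxine and organic anion carrier Oatp1c1, read 12.48, 12.59, 12.81 and 12.36 in B6 and 13.39, 13.56, 13.13 and 13.07 in BTBR. The strains did not overlap, and the difference was 0.73 (SE 0.13, 1.66-fold, limma adjusted p = 0.00985). Cd320, the receptor for transcobalamin-bound vitamin B12, was higher by 0.34 (SE 0.08, limma adjusted p = 0.0310), and its second probe by 0.28 (limma adjusted p = 0.0571).

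The permeability and transcytosis list had 1 call among 11 genes (9.09%) and a median near 0. Cavin2, a coat protein of caveolae, rose by 0.49 (SE 0.10, limma adjusted p = 0.0180). Cavin1, needed for caveolae to form, had a difference of 0.39 at its brightest probe and was not called (limma adjusted p = 0.0875). In the junction list 15 of 18 genes had a higher mean in BTBR, with a median of 0.18. Over the brightest probes of all genes, 52.9% were higher, with a median of 0.01. In the junction list 1 gene was called, or 5.56% beside 7.82% of all genes. That gene was Marveld2, which encodes tricellulin of 3-cell contacts, with a difference of 0.63 (SE 0.15, limma adjusted p = 0.0403), beside 0.22 at its second probe. Cgnl1, a cytoplasmic junction protein, had the next largest difference in that list, 0.42 with an SE of 0.40.

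Of 22 ligands, receptors and partners of VEGF and angiopoietin signaling, 3 rose and 1 fell at the brightest probe. This is 18.2% beside 7.82% of all genes. Angpt2, the Tek ligand that loosens vessels, read 8.58, 8.63, 9.01 and 8.50 in B6 and 9.87, 9.71, 9.44 and 9.38 in BTBR. BTBR was wholly above B6, by 0.92 (SE 0.14, 1.89-fold, limma adjusted p = 0.00401). Vegfa, the ligand of Flt1 and Kdr, was higher by 0.44 (SE 0.10, limma adjusted p = 0.0268) at its brightest probe and by 0.43, 0.33 and 0.15 at the others, of which the first was called. Apln, a peptide ligand of vessel tips, rose by 0.36 at its brightest probe (SE 0.08, limma adjusted p = 0.0252), while its 2 other tested probes gave 0.21 and 0.08 and were not called. Vegfd, chosen after its values were seen as the one that fell, had a difference of -1.12 (SE 0.27, limma adjusted p = 0.0396).

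**Figure D5:**
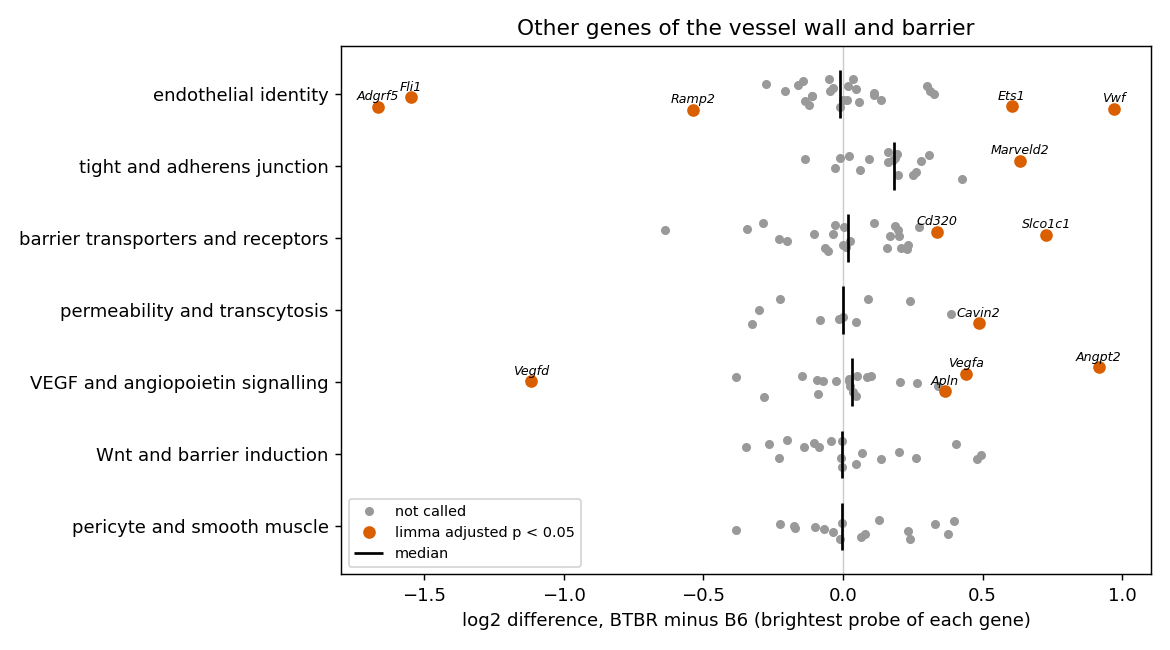
Log2 difference, BTBR minus B6, at the brightest probe of each tested gene in 7 vessel wall lists, with a line at the median of each list and orange points for genes with a limma adjusted p under 0.05. The 13 called genes are named, 9 to the right and 4 to the left of 0, and the junction list has the highest median (0.18).

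Neither the Wnt and barrier induction list nor the list of pericytes and smooth muscle had a call at the brightest probe, in 19 and 17 genes tested. The medians were -0.0041 and -0.0024. In the first, Lef1 differed by 0.50 (limma adjusted p = 0.339) with BTBR replicate 1 far above the other arrays at 11.35, and Fzd4, a receptor in barrier formation, by 0.48 (limma adjusted p = 0.119). In the second, Vtn differed by 0.40 (limma adjusted p = 0.197) and Mylk by -0.38 (limma adjusted p = 0.318).

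The brightest probe did not speak for every probe of a gene. The tested genes of the 7 lists had 73 further tested probes, of which 8 were called (11% beside 7.61% of all probes), and 5 genes were called only there. These 5 genes were named after their values were seen. Slc16a1, the lactate carrier Mct1 of brain endothelium, was higher by 0.76 at A_51_P397363 (limma adjusted p = 0.000794), beside 0.17 and 0.16 at its other probes. The VEGF co-receptor Nrp1 had -1.04 at A_52_P174942 (limma adjusted p = 0.00193), where only 2 of 4 BTBR arrays were well above background, beside -0.38 at its brightest probe and -0.52 at the third.

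Tnfrsf21, a death receptor used in barrier formation, had -0.60 at A_52_P198998 (limma adjusted p = 0.0101), beside -0.20 and -0.23. Abcc9, a channel subunit gene from the list of pericytes and smooth muscle, had 0.37 at its brightest probe. It was higher by 0.65 and 0.63 at A_51_P328857 and A_52_P616224 (limma adjusted p = 0.00151 and 0.000614). Both probes were well above background on 3 of 4 B6 arrays. The pericyte regulator gene Rgs5 had 0.65 at A_51_P354934 (limma adjusted p = 0.0145) and -0.17 at its brightest probe, so that its probes differed in sign.

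Markers of other tissue that a dissected hippocampus can carry were read in the same way. All 7 tested choroid plexus markers had higher means in BTBR, with a median of 0.43 and 0 called by limma. The largest difference was that of Sostdc1, at 1.65 (limma adjusted p = 0.158, pfp 0.000533). Their summed intensity was 15910 to 39320 in B6 and 18400 to 77030 in BTBR. These markers, like the median of the endothelial probes, had a higher difference on slide 1 than on slide 2. All 7 were higher in BTBR on slide 1 (median 1.18) and 6 of 7 were lower on slide 2 (median -0.33), with Ttr at 1.18 and -0.33 and Otx2 at 1.25 and -0.29. At Mfsd2a the slides gave 0.50 and 0.53. For meninges 7 of 8 were higher (median 0.24, 0 called by limma), with sums of 17200 to 50220 and 27140 to 49030. They were higher on both slides, at 6 of 8 with a median of 0.19 on slide 1 and at 7 of 8 with a median of 0.41 on slide 2. The largest of these differences was that of Igf2, at 1.29 (limma adjusted p = 0.0662, pfp 0.00121), whose second probe was called at 1.24 (limma adjusted p = 0.0333), followed by Slc6a13 at 1.02 (limma adjusted p = 0.215, pfp 0.00672). For blood 4 of 4 tested were higher (median 0.27, 0 called), with sums of 103300 to 215400 and 144200 to 461700. The blood markers went the other way by slide, with 0 of 4 higher on slide 1 and 4 of 4 on slide 2. BTBR replicate 3 was the highest BTBR array at 4 of 4, with Hba-a1 at 17.52 against 15.59 to 16.20 in the others. Without it, in a comparison chosen after the data were seen, the 4 differences lay between -0.41 and 0.0017. These ranges overlap between the strains, and the part of such tissue in the differences above was not tested.

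Markers of the resident cells were called in both directions, at 12.5% of astrocyte, 37.5% of microglial and 12.5% of neuronal markers beside 7.82% of all genes. Of 8 astrocyte markers 1 was called, Gfap, at -1.30. Of 8 microglial markers 3 were called, with Cx3cr1 at 1.41, C1qb at -1.01 and Itgam at -0.40. Of 8 neuronal markers 1 was called, Nefl, at -0.65. Summed intensity was 232800 to 249200 in B6 and 177300 to 256900 in BTBR for astrocytes, and 42270 to 45600 and 41750 to 51660 for microglia. For neurons it was 516800 to 537100 in B6 and 460300 to 505200 in BTBR, ranges that do not overlap. By direction, however, 4 of the 8 neuronal markers were higher and 4 lower in BTBR, with a median difference of -0.02. For astrocytes 2 were higher and 6 lower (median -0.15), and for microglia also 2 and 6 (median -0.05). The part of these resident cells in the endothelial values was not tested.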

How the data were processed

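Whole hippocampus of 4 BTBR and 4 B6 mice was hybridized to single-color Agilent arrays. The intensity values were deposited by the authors as Feature Extraction 10.7.3.1 of Agilent read them (version 9.1 in the submitters' processing notes), with spot means, local background and flags unscaled between arrays. The log2 matrix was deposited by the authors after background subtraction and quantile normalization and served as an alternative. Between 57.4% and 72.3% of spots were well above background, the lowest share in B6 replicate 1, and none was saturated.
Median local background was subtracted from spot means, with a minimum of 0.5 and an offset of 50, and quantile normalization followed on the log2 scale. The median of replicate spots was taken, without controls and without 154 probes flagged as outliers. Probes well above background on 75% of the arrays of one strain were kept, 27982 in all. Strains were compared with limma 3.58.1 in R 4.3.3 with Benjamini-Hochberg adjustment, with a rank product of 100 permutations written out here, and with exact permutation tests, after a test on simulated data. The brightest probe of a gene was that with the highest mean.
The members and lists were chosen with earlier results of these data known. Every member probe was named, and from each further list at most 3 called genes with the smallest p or, with fewer than 2 called, the 2 largest differences. Probe positions are on mm9, as the files give them. A same-number pairing of mice is not given by the labels. Alternatives changed the signal, normalization, offset, filter, flags, probe summary, arrays, block and test. The qRT-PCR measurements and the En2 mice were not analysed here, and 1 marker gene is not reported here by name.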

Additional observations from a re-analysis of the deposited data

Results flagged for a closer look

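At 2 probes a single array stood apart from the others of its strain, by a gap larger than Dixon's 95% critical value for 4 arrays. At Cdh5 probe A_51_P309056, BTBR replicate 1 read 8.38, above the 8.28 to 8.29 of the other BTBR arrays, and the gap made up 0.936 of the range. At Flt1 probe A_52_P520859, B6 replicate 1 read 8.90, below the 9.10 to 9.12 of the other B6 arrays, with a share of 0.899. In all, 28 groups of 4 were checked, 1 for each strain at each tested probe, and chance flags about 1 in 20 groups. Neither probe was called with or without the array.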

How the results depend on the processing

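Under the alternatives with a limma fit, no member other than Mfsd2a was called. The number of member probes called was 0 rather than 1 within slide 1, within slide 2, by the rank product and at a threshold of 0.01, and 0 to 1 when single arrays were left out. Probes without overlap numbered 2 with the processed signal, Slc2a1 being the second, and 1 to 2 without single arrays. The rank product called 0 member probes in each setting in which it was run. Of the wider lists, 17 genes were called within slide 1 and 3 within slide 2, 7 by the rank product and 6 at 0.01, and 6 to 14 without single arrays. Over all 27982 probes, 2421 were called within slide 1, 1036 within slide 2, 1098 by the rank product and 1196 at 0.01, against 2129 as reported. Some differences that were not called changed sign. For Tek probe A_51_P130374 they were 0.0496 with the processed signal and 0.10 within slide 1, and for Tek probe A_52_P234087 0.0323 with the processed signal. Cldn5 gave 0.14 within slide 1, and within slide 2 Abcb1a gave -0.0609, Kdr -0.10, Slco1a4 -0.0402 and Flt1 probe A_52_P520859 -0.17. Without single arrays, Tek ranged from -0.0544 to 0.0416 and, at the second probe, from -0.0925 to 0.0116, Abcb1a from -0.0224 to 0.0445, Cdh5 probe A_51_P309056 from -0.0477 to 0.0864 and Flt1 probe A_52_P520859 from -0.11 to 0.0789.
The labels do not say whether the replicate numbers pair the mice. Same-numbered mice deviated from their strain means with correlations of -0.142, 0.51, -0.101 and 0.39. Replicate number goes with slide here, so these values cannot decide whether the mice were paired. With the replicate number as a block, Mfsd2a kept its call (0.51, limma adjusted p = 0.0140), and 1 member probe and 1650 of all probes were called, against 2129 without the block. Signal over background limits Cdh5 probe A_51_P309056, and 4 arrays a strain limit every interval.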

Other observations

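Probes within 1 Mb of each member, leaving out the member itself, were counted after the data were seen. Around Mfsd2a on chromosome 4, 5 of 26 tested probes were called, 3 higher and 2 lower in BTBR, or 19.2% beside 7.61% of all probes. Around Slc2a1 on the same chromosome 11 of 55 were called, 4 higher and 7 lower. Around Slco1a4 on chromosome 6 it was 5 of 19, 4 higher and 1 lower. Around Abcb1a on chromosome 5 it was 2 of 23 (8.7%), and around the Flt1 probes 2 of 28 or 2 of 26 (7.14% to 7.69%). Around Cldn5, Pecam1, Cdh5, Tek and Kdr 0 were called by limma, among 57, 64, 25, 10 and 22 probes in that order, with 9 probes around the second Tek probe. Probes of one gene share a transcript and are not independent.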
